A study of Mus musculus with 10 samples.

Results

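The 10 genes described here are ones that uterine decidual tissue is known to express, followed on each array of a study of the mouse embryo at embryonic day 5.5. They are Prl8a2, Ctla2a, Tac2, Tdo2, Aoc1, Mgp, Serpinb9b, Rgs2, Hand2 and Wt1. The genes were chosen by their measured signal, as genes far higher in the whole embryo than in dissected fragments of it, and every probe set annotated to exactly 1 of the 10 symbols was taken. This gave 17 probe sets: 12 of 22626 on array type MOE430A, where all 10 genes have a probe set, and 5 of 22511 on MOE430B, where 3 genes have one. Because the whole-embryo signal selected the genes, their difference between fragments and whole embryo is given below as a description, with no test. The difference between the 2 kinds of fragment did not select them and was tested.

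All embryos came from matings of B6SJLF1 with CerlP-GFP mice, carried a fluorescent mark in the anterior visceral endoderm, the signalling tissue that sets the front of the embryo, and were not treated. The anterior distal fragment, Ad, held that fluorescent endoderm with the epiblast beneath it. The posterior proximal fragment, Pp, was a triangle of proximal visceral endoderm and epiblast from the opposite side, cut so that its top edge lay at the border with the extraembryonic region. Each array type was hybridised with 2 Ad samples, 2 Pp samples and 1 whole embryo, 10 arrays in all, numbered Ad and Pp replicates 1 and 2 on MOE430A and replicates 3 and 4 on MOE430B. The labels do not say how many embryos made a sample, whether replicates came from separate embryos, whether the 2 array types shared RNA, or how much tissue around the whole embryo was removed. P-values below therefore measure only the spread between these samples.

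The decidua forms when fibroblast-like stromal cells of the uterus change shape and function around the implanting embryo, under progesterone. In the mouse these cells secrete hormones of the prolactin family, protease inhibitors and matrix proteins, and make enzymes that break down tryptophan and histamine. Progesterone acts through its nuclear receptor and, in the stroma, through Hand2, a basic helix-loop-helix transcription factor. Not every gene followed here is secreted. Rgs2 encodes a regulator that shortens signalling by G protein-coupled receptors, Wt1 a zinc finger transcription factor, Tdo2 the liver-type enzyme that opens the tryptophan ring, and Serpinb9b an intracellular serpin. Hand2, Wt1, Mgp and Rgs2 are also made by embryonic tissues later in development, so none of them marks decidua alone.

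Promoter windows of 250 bases before the transcription start were available from RefSeq for 7 of the 10 genes, 9 windows in all, on build GRCm38.p6. The 4 shown are those of Ctla2a (chr13:60936626-60936875, minus strand), Tac2 (chr10:127724228-127724477, plus strand) and Tdo2 (chr3:81975729-81975978, minus strand), whose signal set 1 Ad array apart from the other fragment arrays, and of Serpinb9b (chr13:33027164-33027413, plus strand), whose signal did not. They are written 5′ to 3′ on the strand of the gene. Capitals mark AGAACA, the core letters bound by the progesterone and glucocorticoid receptors, or its reverse complement TGTTCT, and the E-box CANNTG of basic helix-loop-helix factors such as Hand2, where N is any base.
Ctla2a: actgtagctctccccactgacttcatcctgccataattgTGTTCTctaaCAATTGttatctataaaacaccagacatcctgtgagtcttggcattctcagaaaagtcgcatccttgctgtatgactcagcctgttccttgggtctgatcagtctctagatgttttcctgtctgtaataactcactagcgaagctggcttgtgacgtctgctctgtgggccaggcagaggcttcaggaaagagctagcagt
Tac2: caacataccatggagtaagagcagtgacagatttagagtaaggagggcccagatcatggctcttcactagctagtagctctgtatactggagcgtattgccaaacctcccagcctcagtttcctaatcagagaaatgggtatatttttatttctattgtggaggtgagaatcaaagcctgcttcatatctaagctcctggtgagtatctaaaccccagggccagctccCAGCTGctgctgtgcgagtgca
Tdo2: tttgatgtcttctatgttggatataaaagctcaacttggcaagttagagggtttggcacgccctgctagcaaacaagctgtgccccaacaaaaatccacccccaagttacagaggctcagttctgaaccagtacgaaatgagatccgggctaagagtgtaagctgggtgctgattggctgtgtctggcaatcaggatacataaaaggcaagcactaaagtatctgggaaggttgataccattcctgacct
Serpinb9b: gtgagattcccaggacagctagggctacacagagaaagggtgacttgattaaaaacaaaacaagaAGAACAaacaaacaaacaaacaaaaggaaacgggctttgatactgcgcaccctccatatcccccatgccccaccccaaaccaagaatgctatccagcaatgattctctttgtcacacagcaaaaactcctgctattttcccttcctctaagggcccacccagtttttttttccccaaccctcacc
The receptor letters occurred once in the Ctla2a window and once in the Serpinb9b window, 2 of 9 windows, against 16.1% of the 32851 promoter windows of this length. Searched on both strands, the E-box occurred in 5 of the 9 windows, against 66.2% of all windows, and the Ctla2a and Tac2 windows each held 1. The C/EBP palindrome TTGCGCAA occurred in 0 of the 9 windows, against 0.164% of all windows, while the looser TTNCNNAA, which contains it, occurred in 6, against 36.85%. The Tdo2 window held none of the letters searched. Windows of 2 starts of the same gene can overlap, and a match describes letters, not a bound site.

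The signal in the whole embryo was the highest of the 5 arrays for all 17 probe sets. Values are deposited MAS5 signal in arbitrary units. On MOE430A the whole-embryo array was at least 2-fold above the highest fragment array for 10 of the 12 probe sets, and on MOE430B for 3 of 5. A probe set was tested when its mean log2 signal lay above the 40th percentile of its array type, which 9 of 12 and 5 of 5 did. On the centred log2 scale used for tests, 8 of the 9 on MOE430A were at least 2-fold above every fragment array, where 1.16% of all 13575 probe sets were, and 3 of the 5 on MOE430B, where 1.36% of 13506 were. These counts follow from how the genes were picked. The median over the 12 probe sets was 14.0% and 15.1% of the whole-embryo signal in Ad replicates 1 and 2 and 13.6% and 12.8% in Pp replicates 1 and 2, while over all tested probe sets it lay between 95.3% and 99.6%. Over the 5 probe sets on MOE430B it was 4.96% and 6.49% in Ad replicates 3 and 4 and 6.32% and 6.09% in Pp replicates 3 and 4. Each of these is the value of Hand2 1436041_at, and single values ran from 1.22% to 87.4%. Over all tested probe sets on MOE430B the median lay between 98.1% and 105%. In bulk tissue, fewer cells that make an RNA and less of it per cell cannot be told apart.

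**Figure D1:**
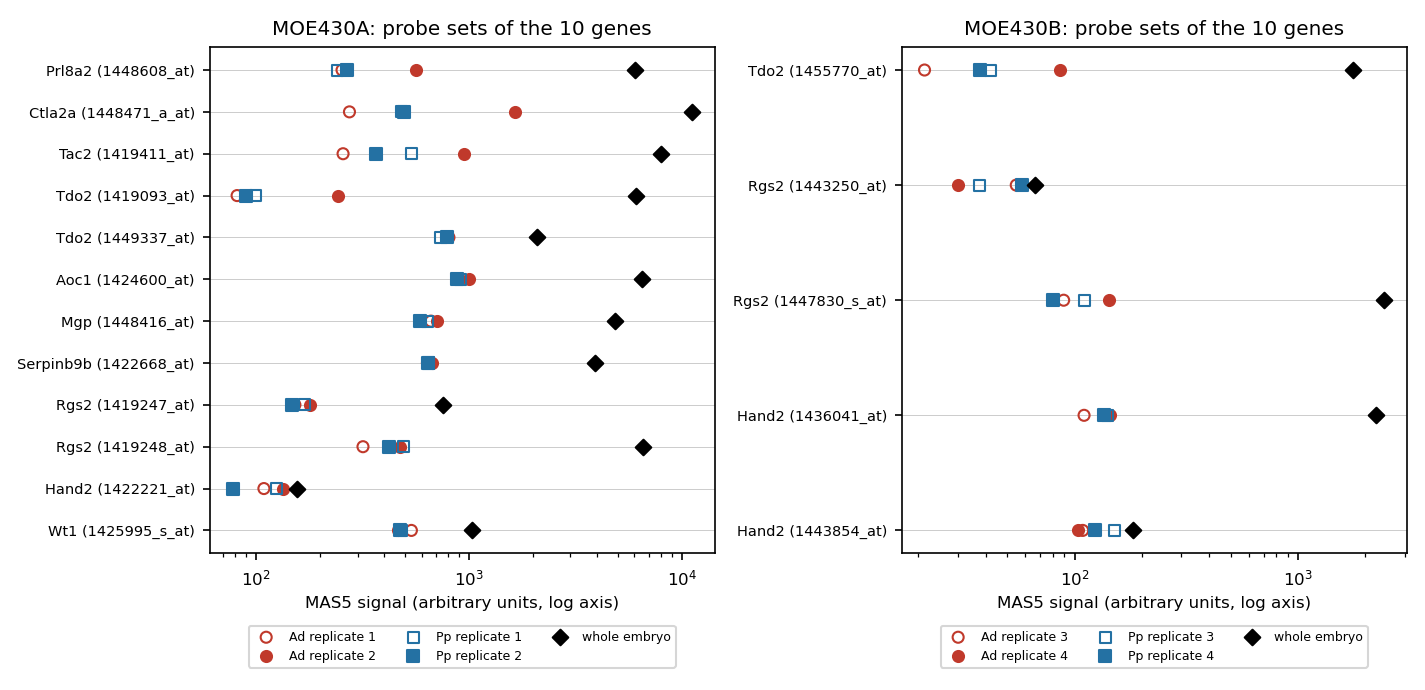
Deposited signal (horizontal log axis, arbitrary units) of each probe set of the 10 genes, 1 row per probe set and 1 point per array, with circles for Ad, squares for Pp and a diamond for the whole embryo. The diamond lies farthest right in every row, and for Ctla2a, Tac2 and Prl8a2 the Ad replicate 2 circle stands to the right of the other 3 fragment points.

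The hormone and peptide genes Prl8a2 and Tac2, the protease inhibitor gene Ctla2a and 1 probe set of Tdo2 spread by more than 2-fold among the 4 MOE430A fragment arrays, and in each of them Ad replicate 2 was the highest. Ctla2a encodes an inhibitor of cathepsin-like cysteine proteases. Its signal was 275 and 1646 in Ad, 482 and 497 in Pp and 11198 in the whole embryo. Ad replicate 2 was therefore 5.99-fold above Ad replicate 1, and also above both Pp arrays, while Ad replicate 1 lay below both. Tac2, which encodes the precursor of the peptide neurokinin B, had a signal of 256 and 945 in Ad, 539 and 368 in Pp and 7987 in the whole embryo. The order was the same, with Ad replicate 2 highest and Ad replicate 1 lowest. Prl8a2, or decidual prolactin-related protein, had 254 and 564 in Ad, 241 and 267 in Pp and 6063 in the whole embryo. Here Ad replicate 1 sat with the Pp arrays, and Ad replicate 2 was 2.22-fold above it. In Ctla2a, Tac2 and Prl8a2 the Ad replicate 1 signal lay near the 20th percentile of MOE430A signal (247). Folds over Ad replicate 1 therefore rest on a dim value. On the centred log2 scale used for tests, Ad replicate 2 minus Ad replicate 1 was 1.88 for Ctla2a, 1.26 for Tac2 and 0.71 for Prl8a2. On that scale the Prl8a2 difference was below 2-fold.

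Tdo2 has 3 probe sets, and they did not agree. The probe set 1419093_at, below the filter on mean signal and so not tested, had 81.5 and 242 in Ad, 99.1 and 89.7 in Pp and 6092 in the whole embryo. Ad replicate 2 was again the highest fragment array, but all 4 fragment signals lay below the 20th percentile of MOE430A signal (247), so no fold is given. The second, 1449337_at, had 806 and 778 in Ad, 739 and 788 in Pp and 2098 in the whole embryo, so that the fragments kept between 35.2% and 38.4% of its signal and no array stood out. The third, 1455770_at on MOE430B, had 21.3 and 86.3 in Ad, 42.1 and 37.7 in Pp and 1751 in the whole embryo, where the first Ad array, replicate 3, was the lowest and replicate 4 stood 4.05-fold above it.

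Aoc1, Mgp and Serpinb9b behaved differently among the fragments. Aoc1, the diamine oxidase that degrades histamine and putrescine, had 932 and 1004 in Ad, 911 and 880 in Pp and 6513 in the whole embryo. Mgp, the matrix Gla protein that blocks calcification, had 664 and 711 in Ad, 640 and 588 in Pp and 4854 in the whole embryo. Serpinb9b had 639 and 674 in Ad, 645 and 640 in Pp and 3923 in the whole embryo. By deposited signal Ad replicate 2 was the highest fragment array for these 3 genes as well, but by 1.06-fold to 1.08-fold over Ad replicate 1, and after centring both Pp arrays lay above both Ad arrays for Serpinb9b. Between 12.1% and 17.2% of the whole-embryo signal was left in every fragment array.

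Among the regulators, Rgs2 and Hand2 also differed by probe set. For Rgs2, 1419248_at had 318 and 477 in Ad, 495 and 424 in Pp and 6578 in the whole embryo, and 1447830_s_at on MOE430B had 89.3 and 143 in Ad, 111 and 79.9 in Pp and 2422 in the whole embryo. The groups overlapped in both. They overlapped as well in 1419247_at, which was below the filter and not tested, with 152 and 180 in Ad, 169 and 148 in Pp and 758 in the whole embryo. The fourth, 1443250_at on MOE430B, barely separated the whole embryo from the fragments and had 54.8 and 30.2 in Ad, 37.5 and 58.3 in Pp and 66.7 in the whole embryo. For Hand2, 1436041_at had 110 and 144 in Ad, 140 and 135 in Pp and 2223 in the whole embryo. The other 2 Hand2 probe sets separated fragments and whole embryo little, with 109 and 134 in Ad, 125 and 77.6 in Pp and 156 in the whole embryo for 1422221_at, and 109 and 103 in Ad, 150 and 123 in Pp and 183 in the whole embryo for 1443854_at. Wt1 had 537 and 465 in Ad, 484 and 475 in Pp and 1037 in the whole embryo. The probe sets ending in _s_at, those of Wt1 and 1447830, can match more than 1 transcript by Affymetrix naming. The smallest excess of the whole embryo over the highest fragment array was 2.60-fold for Tdo2 1449337_at among probe sets past 2-fold, and below 2-fold came Wt1 at 1.93-fold, then Hand2 1443854_at at 1.21-fold, Hand2 1422221_at at 1.17-fold and Rgs2 1443250_at at 1.14-fold.

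**Figure D2:**
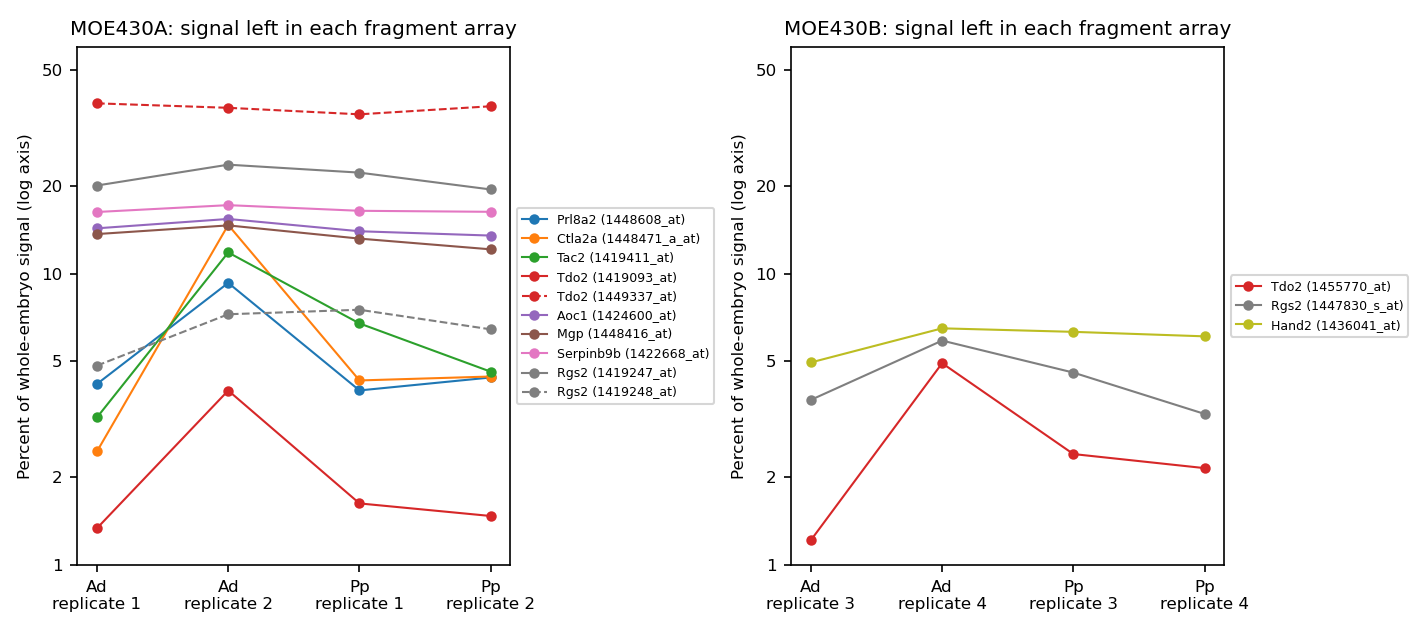
Signal in each fragment array, for the 10 MOE430A and 3 MOE430B probe sets in which the whole embryo was at least 2-fold above the highest fragment array, as a percent of the whole-embryo signal (log axis), with Ad arrays left of Pp arrays and 1 line per probe set; the lines only join the points of a probe set. Ctla2a reaches 14.7% in Ad replicate 2 and lies between 2.45% and 4.44% in the other 3 arrays, while Aoc1 lies between 13.5% and 15.4% in all 4.

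Set against the whole-embryo signal, the extra signal in Ad replicate 2 was not the same share for each gene. Its excess over the mean of the other 3 fragment arrays came to 10.97% of the whole-embryo signal for Ctla2a, 6.97% for Tac2, 5.11% for Prl8a2 and 2.49% for Tdo2 1419093_at. It was 1.65% for Mgp, 1.47% for Aoc1, 0.992% for Rgs2 1419248_at, 0.846% for Serpinb9b and 0.022% for Tdo2 1449337_at. For Rgs2 1419247_at, with all signals in the fragments below the 20th percentile of MOE430A, it was 3.08%. On MOE430B the excess of Ad replicate 4 was 3.01% for Tdo2 1455770_at, 2.04% for Rgs2 1447830_s_at and 0.704% for Hand2 1436041_at. In the 4 probe sets whose whole-embryo signal was under 2-fold above the highest fragment array, the share was 19.3% for Hand2 1422221_at, -3.23% for Wt1, -30.0% for Rgs2 1443250_at and -13.2% for Hand2 1443854_at. Whether deposited signal is proportional to RNA over this range was not tested.

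Few probe sets of any kind were this much higher in Ad replicate 2 than in Ad replicate 1, or in Ad replicate 4 than in Ad replicate 3. Only this direction was counted over all probe sets. On the centred log2 scale, Ad replicate 2 was at least 2-fold above Ad replicate 1 for 2 of the 13575 probe sets (0.0147%), and these were Ctla2a and Tac2. Pp replicate 2 was at least 2-fold above Pp replicate 1 for 0.184% of probe sets, and for 0 of the 9 of these genes. Ad replicate 2 was the highest of the 4 fragment arrays for 5 of the 9, against 19.4% of all probe sets and 28.5% of the 158 at least 2-fold higher in the whole embryo. On MOE430B, Ad replicate 4 was at least 2-fold above Ad replicate 3 for 0.170% of 13506 probe sets, among them Tdo2 1455770_at, and Pp replicate 4 above Pp replicate 3 for 0.503%, with 0 of the 5. Ad replicate 4 was the highest fragment array for 2 of the 5, against 20.9% of all and 26.1% of the 184 at least 2-fold higher in the whole embryo. The number of probe sets past 2-fold depends on the pseudocount, and without it 8 probe sets passed on MOE430A, among them Ctla2a, Tac2 and Prl8a2.

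**Figure D3:**
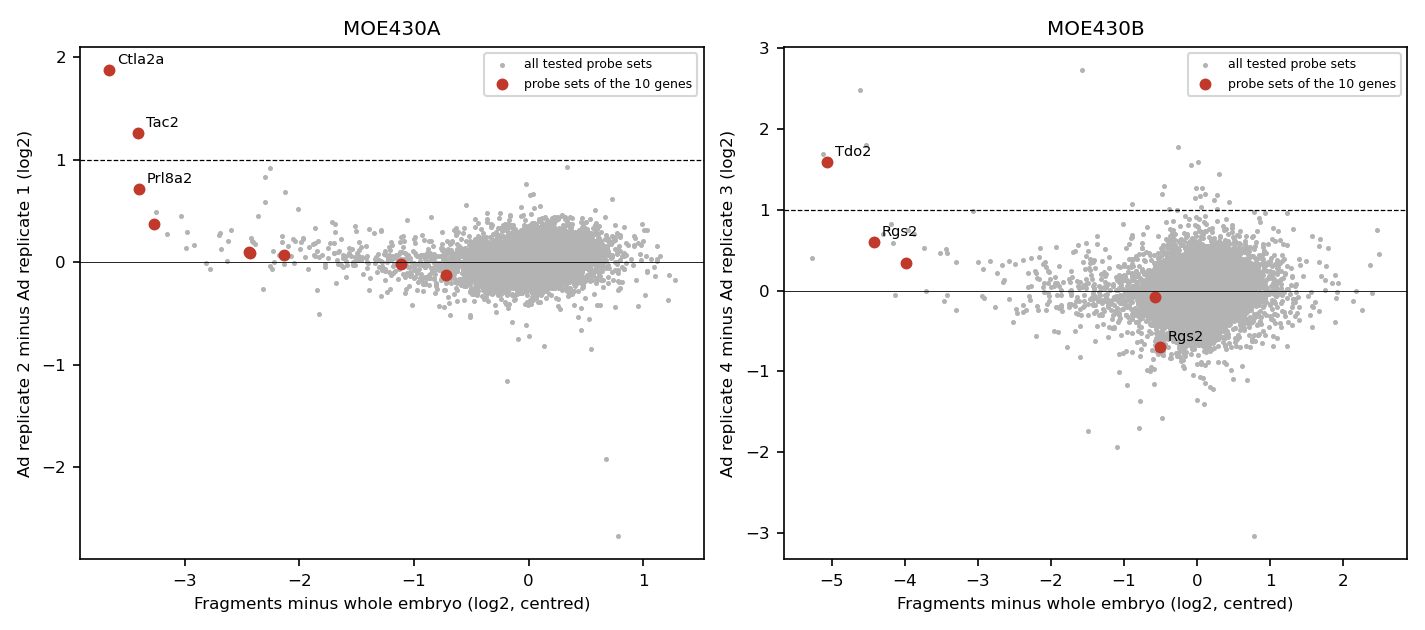
Centred log2 difference between the 2 Ad arrays of a type (vertical) against fragments minus whole embryo (horizontal), with tested probe sets of the 10 genes in red over all tested probe sets in grey and a dashed line at 2-fold. Ctla2a and Tac2 are the 2 probe sets past 2-fold on MOE430A, and Tdo2 1455770_at is 1 of 23 on MOE430B.

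No probe set of the 10 genes passed the test of Ad minus Pp in the limma fit over all tested probe sets (threshold, Benjamini-Hochberg adjusted p of 0.05). On MOE430A 0 of 9 passed, where 0.169% of all probe sets did, with adjusted p between 0.572 and 0.942. Of these 9, Prl8a2 and Rgs2 1419248_at met the filter only through the whole-embryo array, and with the filter on fragments alone 0 of 7 passed. On MOE430B 0 of 5 passed, where 0.111% did, with adjusted p between 0.472 and 0.971. At an unadjusted p of 0.05 in limma, 0 of 9 and 1 of 5 were below it, against 1593 of all 13575 and 1400 of all 13506 probe sets. With 2 arrays a group the intervals were wide for the genes in which the Ad arrays differed. Ad minus Pp on the log2(signal + pseudocount) scale was 0.36 for Ctla2a (95% interval -0.995 to 1.72), 0.28 for Prl8a2 (-0.26 to 0.82), 0.087 for Tac2 (-0.87 to 1.04) and 0.065 for Tdo2 1455770_at (-1.04 to 1.17). Each of these intervals includes 0. For Aoc1 the difference was 0.020 (-0.15 to 0.19), for Mgp 0.049 (-0.13 to 0.23), for Serpinb9b -0.046 (-0.21 to 0.12) and for Rgs2 1419248_at -0.21 (-0.54 to 0.12). It was -0.028 for both Wt1 and Tdo2 1449337_at, 0.16 for Rgs2 1447830_s_at and -0.23 for Rgs2 1443250_at.

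The sign of the first 4 differences turned when a single array was left out. Without Ad replicate 2, Ad minus Pp was -0.57 for Ctla2a, -0.54 for Tac2 and -0.077 for Prl8a2, and without Ad replicate 4 it was -0.73 for Tdo2 1455770_at. None of these passed the test either, in fits that assume the lone Ad array to vary like the other groups. Without Pp replicate 2, the difference for Tac2 was -0.083, and without Pp replicate 4 that for Tdo2 1455770_at was -0.027. Hand2 1443854_at was the probe set below an unadjusted p of 0.05, with Ad minus Pp of -0.41 (-0.79 to -0.020, adjusted p = 0.472), and its 2 Pp arrays lay above both Ad arrays. The brighter Hand2 probe set 1436041_at gave -0.19 (-0.59 to 0.20). On the centred log2 scale, Ad and Pp arrays did not overlap for 1 of 9 probe sets on MOE430A, Serpinb9b with Pp above Ad, against 45.4% of all probe sets, and for 1 of 5 on MOE430B, Hand2 1443854_at, against 42.8%. The median difference was 0.017 over the 12 probe sets on MOE430A and -0.19 over the 5 on MOE430B, against -0.027 and -0.012 over all tested probe sets. The MOE430B median is the value of Hand2 1436041_at.

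**Figure D4:**
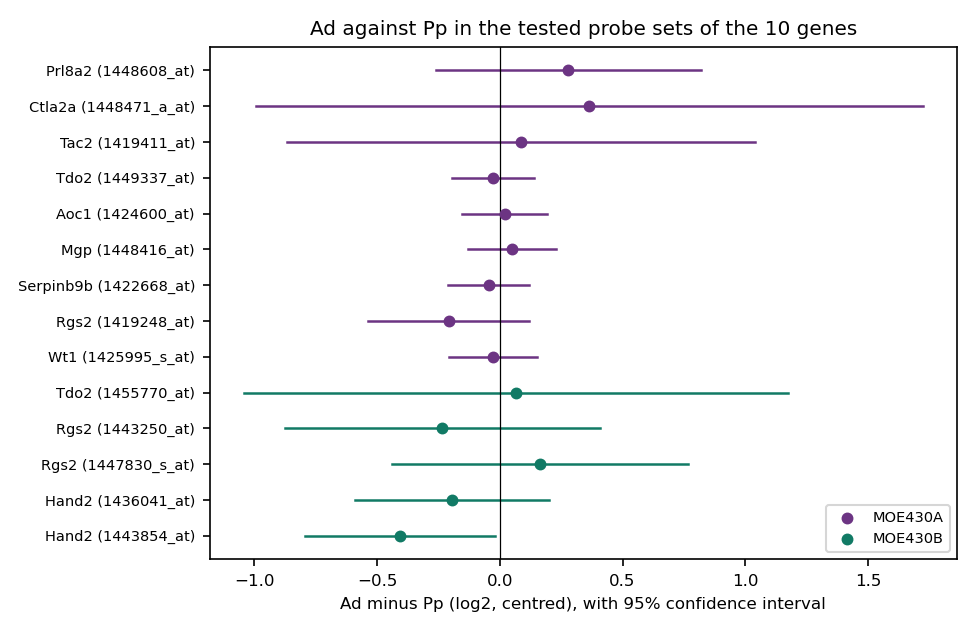
Ad minus Pp in log2(signal + pseudocount) for each tested probe set of the 10 genes, as the limma estimate with its 95% interval. Every interval but that of Hand2 1443854_at includes 0, and that of Ctla2a runs from -0.995 to 1.72.

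Relatives of these genes differed in how far Ad replicate 2 stood from the other fragment arrays. Prl6a1, another prolactin family hormone of the decidua, had 394 and 881 in Ad, 379 and 388 in Pp and 3559 in the whole embryo. Prl3c1 had 94.5 and 812 in Ad, 96.9 and 86.9 in Pp and 4066 in the whole embryo, and Prl8a9 had 278 and 417 in Ad, 267 and 295 in Pp and 1624 in the whole embryo. In all 3, Ad replicate 2 was the highest fragment array, and for Prl3c1 the other 3 fragment arrays lay below the 20th percentile of MOE430A signal (247). Prl3c1 and Prl8a9 were below the filter and were not tested, and Prl6a1 did not pass (adjusted p = 0.599 in limma). Ctla2b, the close paralogue of Ctla2a, had 111 and 182 in Ad, 101 and 98.9 in Pp and 1569 in the whole embryo. All 4 of its fragment signals lay below that percentile. The related serpin genes Serpinb6b and Serpinb9 did not set Ad replicate 2 apart to the degree of the 3 prolactin family genes above. Serpinb6b had 359 and 441 in Ad, 367 and 302 in Pp and 3177 in the whole embryo, and Serpinb9 had 908 and 955 in Ad, 1050 and 997 in Pp and 2815 in the whole embryo. Of the 26 prolactin family and receptor genes listed, 4 were tested on MOE430A and 2 on MOE430B, and 0 rose or fell in Ad relative to Pp. Over those 4 on MOE430A, Ad replicate 2 was at least 2-fold above Ad replicate 1 for 0 on the centred log2 scale. By deposited signal it was the highest fragment array for 2. Their median share of whole-embryo signal was 101% and 99.5% in Ad and 84.0% and 96.5% in Pp. Prl6a1, Prl3c1 and Prl8a9 are thus named from 15 prolactin family and receptor genes with a probe set on MOE430A, after their values were seen. The same count of genes that rose or fell was 0 of 3 and 0 of 2 for tachykinins and their receptors, 0 of 2 and 0 of 3 for enzymes from tryptophan to kynurenine, and 0 of 5 and 0 of 3 for Ctla2b and the serpins. At least 2-fold higher in the whole embryo on MOE430A were 1 of the 4, 0 of the 3, 0 of the 2 and 2 of the 5.

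Of 34 other genes linked to decidualization, from Bmp2 and Wnt4 to the progesterone receptor gene Pgr, 27 were tested on MOE430A and 4 on MOE430B. The whole embryo was at least 2-fold above every fragment array for 9 of the 27 and 3 of the 4, and 0 rose or fell in Ad relative to Pp. The 9 were Igfbp3, Igfbp4, Wnt4, Bmp2, Hoxa10, Mmp2, Adamts1, Alpl and Hoxa11, and the 3 were Esr1, Igfbp3 and Pgr. Summed over the 33 list genes with a probe set on MOE430A, tested or not, the signal was 36670 and 36658 in Ad, 35383 and 35194 in Pp and 71452 in the whole embryo. No fragment array stood apart in the sum. The sum is weighted to the brightest genes, and could hide an excess in a few dim ones. Over the 27, the median share of whole-embryo signal was 84.6% and 82.2% in Ad and 72.5% and 85.2% in Pp. Median Ad minus Pp over the 27 was -0.047. The genes differed among themselves, since Des, Hsd11b1 and Ptgis were not 2-fold higher in the whole embryo.

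Markers of other cells gave values beside which the pattern can be set. For maternal blood and leukocytes, 5 of 16 genes were tested on MOE430A and 0 of these were 2-fold higher in the whole embryo. The signal summed over the 14 with a probe set was 6328 and 6090 in Ad, 6197 and 5960 in Pp and 6717 in the whole embryo. Only those 5 lay above the filter on mean signal, so dim probe sets enter the sum. A probe set shared by Hbb-b1, Hbb-bt and other globin genes was outside the list because it names several genes. Its fragments minus whole embryo was -1.22 (centred log2), so it was higher in the whole embryo. For endothelium, 5 of 11 were tested and 0 of these were 2-fold higher in the whole embryo. The sums over all 11 were 6960 and 6984 in Ad, 6457 and 6466 in Pp and 10945 in the whole embryo. Of markers of uterine epithelium, several of which the embryo also makes, 1 of 5 tested genes was 2-fold higher in the whole embryo (Krt19) and 1 rose in Ad relative to Pp (Foxa2, also an anterior visceral endoderm gene). The median Ad minus Pp of the 5 was 0.39, and by deposited signal Ad replicate 2 was the highest fragment array for 3. Of ectoplacental and giant cell markers, 1 of 6 was 2-fold higher in the whole embryo (Hand1, at 477 and 435 in Ad, 471 and 1248 in Pp and 4014 in the whole embryo). Ad replicate 2 was 2-fold above Ad replicate 1 for 0 of the 5 and 0 of the 6. Of the 14 anterior visceral endoderm genes, 14 were tested on MOE430A and 6 rose in Ad. The signal summed over 12 extraembryonic ectoderm genes was highest among the fragments in Pp replicate 2, at 17619, against 11573 to 12110 in the other 3. By deposited signal, Pp replicate 2 was the highest fragment array for 0 of the 12 probe sets of the 10 genes. On the centred log2 scale it was the highest for Serpinb9b and Tdo2 1449337_at among their tested probe sets. On that scale it was the highest for 34.3% of all tested probe sets and 41.8% of the 158 at least 2-fold higher in the whole embryo. The Actb control, read at both ends of its transcript as a sign of RNA length, had a 3′/5′ ratio of 3.69 to 4.50 in Ad and Pp arrays and 5.87 in the whole embryo on MOE430A. On MOE430B the ratio was 3.51 to 3.79 in Ad and Pp arrays and 4.22 in the whole embryo. The Gapdh control differed less, with a ratio of 1.40 to 1.57 in Ad and Pp arrays and 1.60 in the whole embryo on MOE430A. Its ratio on MOE430B was 1.19 to 1.34 in Ad and Pp arrays and 1.49 in the whole embryo. The part of RNA length in the difference between fragments and whole embryo was not tested.

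The probe sets with the profile most like the mean of these genes over the 5 MOE430A arrays, by root mean square distance in centred log2 signal, were those of Bgn, Serpinb6b, Dmkn, Dpep1 and Drd4, at 0.0770 to 0.141. Bgn, the matrix proteoglycan biglycan, had 448 and 607 in Ad, 536 and 479 in Pp and 4618 in the whole embryo. On MOE430B they were Pdgfrl, Ddr2, Zbtb20, Ppm1h and Vgll3, at 0.0916 to 0.196. Ddr2, a collagen receptor, had 54.9 and 51.8 in Ad, 49.4 and 55.1 in Pp and 463 in the whole embryo.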

How the data were processed

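RNA from 10 samples was linearly amplified, biotin-labelled and hybridised to Affymetrix MOE430A and MOE430B arrays, per the labels' protocols. The deposited values are probe set signal, a linear intensity in arbitrary units that the authors produced using MAS5, according to the submitters' processing notes, with version and scaling target not given in the sources used here. Median signal was 591 to 645 on the MOE430A arrays and 56.7 to 61.0 on the MOE430B arrays. Precision is limited by how few arrays there are.

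The 2 array types were fitted separately with limma 3.58.1 in R 4.3.3. After removal of 64 control probe sets per type, a pseudocount at the 20th percentile of signal (247 on MOE430A, 10.5 on MOE430B) was added before log2, and probe sets whose mean log2 value exceeded the 40th percentile (a signal of 464 and 37.2) were kept. Arrays were centred on their median. Ad minus Pp was fitted with lmFit and eBayes over all 5 arrays, with 2 residual degrees of freedom, and p-values were two-sided and adjusted over all kept probe sets (Benjamini-Hochberg). The whole-embryo arrays have no replicate. Percents of the whole-embryo signal use deposited values with no pseudocount and no background subtracted. A list gene is represented by its brightest probe set. The fit was also run on simulated data with planted changes larger than any Ad minus Pp estimate given here for these genes. That run does not bear on differences of their size.

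The genes and gene lists were chosen with earlier results of these data known. All probe sets of the 10 genes are named, as are list genes on which a result turns and the 5 genes per array type closest in profile. The alternatives were other centring, pseudocounts and filters, an intensity trend, the replicate block, fragments alone and each replicate left out. The settings tried for the count of probe sets higher in the second Ad array of a type, and the crossed pairing, were added after seeing the data. Probe sets with several gene symbols were not used for the 10 genes or the gene lists.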

Additional observations from a re-analysis of the deposited data

How the results depend on the processing

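No probe set of the 10 genes passed the test of Ad minus Pp under any setting that kept all fragment arrays. Over all settings, 195 of 214 values kept their sign. This count includes settings that cannot change the estimate, so it overstates how stable the signs were. These are the intensity trend, the replicate block in either pairing and the fit on fragments alone. With no centring, the sign turned for Serpinb9b (0.0227), Wt1 (0.0409) and Tdo2 1449337_at (0.0406). Wt1 turned under quantile normalization (0.0057), cyclic loess (0.0109) and no filter (0.0014), as did Tdo2 1449337_at with no filter (0.0011). With each replicate left out, the difference ranged from -0.57 to 1.30 for Ctla2a, from -0.54 to 0.72 for Tac2, from -0.077 to 0.63 for Prl8a2, from -0.031 to 0.071 for Aoc1, from -0.089 to 0.034 for Wt1 and from -0.069 to 0.014 for Tdo2 1449337_at. On MOE430B it ranged from -0.73 to 0.86 for Tdo2 1455770_at, from -0.14 to 0.46 for Rgs2 1447830_s_at and from -0.58 to 0.12 for Rgs2 1443250_at. Signs turned without Ad replicate 2 (Ctla2a, Tac2, Prl8a2, Aoc1, Wt1), Pp replicate 2 (Tac2, Tdo2 1449337_at), Ad replicate 4 (these 3 of MOE430B) and Pp replicate 4 (Rgs2 1447830_s_at, Tdo2 1455770_at). The cause of these changes was not tested.

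Over all probe sets, 23 passed on MOE430A. This was 46 with no centring, 24 with the replicate block (19 shared with the 23), and 47 with the replicate block in crossed pairing. Without Ad replicate 1 it was 1, without Ad replicate 2 it was 3, without Pp replicate 1 it was 811 and without Pp replicate 2 it was 505. On MOE430B 15 passed, against 30 with the pseudocount at the 40th percentile, 2 with no filter, 26 under the 60th percentile filter, 30 with an intensity trend and 29 with the replicate block. Leaving out Ad replicate 3 or 4 gave 0, Pp replicate 3 gave 131 and Pp replicate 4 gave 61. Deviations of same-numbered arrays from their group means correlated at -0.242 on MOE430A and -0.0392 on MOE430B, so the numbers were not taken to pair samples. The count with the whole embryo at least 2-fold above every fragment was 158 on MOE430A and 90 under the 60th percentile filter. On MOE430B it was 184, and 280 with no filter. Ad replicate 2 passed Ad replicate 1 by 2-fold in 2 probe sets, and in 8 with no pseudocount. With the pseudocount at the 40th percentile, Ctla2a passed and Tac2 did not. Ad replicate 4 passed Ad replicate 3 in 23, and in 35 with no pseudocount, 9 with the pseudocount at the 40th percentile, 94 with no filter and 9 under the 60th percentile filter, with Tdo2 1455770_at past 2-fold in each.

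The median percent of whole-embryo signal was 14.5% in Ad and 13.2% in Pp on MOE430A, and 8.01% and 5.78% with the 20th percentile of each array subtracted. That for Pp was 14.3% with signal divided by the array median and 12.7% over kept probe sets. On MOE430B it was 5.73% in Ad and 6.20% in Pp, and for Pp 5.77% with the percentile subtracted and 3.94% with the brightest probe set per gene. Dim probe sets limit the fragment values, since background makes up part of each.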

Other observations

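A probe set annotated to both Ctla2a and Ctla2b, outside the rule because it names 2 genes, had a signal of 139 and 421 in Ad, 129 and 123 in Pp and 3975 in the whole embryo. Ad replicate 2 was its highest fragment array, and the other 3 lay below the 20th percentile of MOE430A signal (247). It was below the filter on mean signal and was not tested. Of the 23 probe sets at least 2-fold higher in Ad replicate 4 than in Ad replicate 3 on MOE430B, 4 were also at least 2-fold above every fragment array in the whole embryo, 2 of Sbsn, 1 of Esr1 and 1 of Tdo2. On MOE430A both of the 2 were. Esr1 had 17.8 and 81.85 in Ad and 84.35 and 36.33 in Pp, so its highest fragment array was Pp replicate 3. These genes were looked at after their values were seen.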
